A study of Mus musculus with 5 samples.

Results

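In nuclei of mouse striatal neurons, 611 gene symbols had a region enriched for trimethylated lysine 4 of histone H3 (H3K4me3) and no listed region for trimethylated lysine 27 (H3K27me3), acetylated lysine 27 (H3K27ac) or RNA polymerase II (Pol II). They were picked by the symbol printed beside each region in the authors' 4 region lists, out of 15052 symbols with H3K4me3, and lay in 587 of the 13142 H3K4me3 regions. The symbols comprised 565 protein-coding genes, 17 long non-coding RNAs, 16 miRNAs, 6 transcribed pseudogenes, 5 small nucleolar RNAs and 2 guide RNAs. Because presence and absence in the 4 lists chose them, their share of 4.06% and their H3K4me3 scores are descriptions with no test.

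The study sorted NeuN-positive nuclei, which the labels call medium spiny neurons, from the striata of 8-week-old C57BL/6 mice, with no other treatment or genotype named. It sequenced chromatin from 4 immunoprecipitations, with Abcam AB8580 against H3K4me3, Millipore 07-449 against H3K27me3, Abcam AB4729 against H3K27ac and Abcam AB5408 against Pol II, and 1 input. Each antibody had 1 library, so no value below has a replicate error and no p-value was computed. NeuN marks most neurons, so the gate does not by itself separate medium spiny neurons from the other striatal neurons. The sources used here give neither the number of mice pooled nor the depth of each library, so the depth is unknown.

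H3K4me3 is laid down around the start sites of genes, above all those in CpG-rich DNA, and is found at most active promoters. H3K27ac accompanies active promoters and enhancers, and Pol II is the enzyme that transcribes protein-coding genes. H3K27me3 is deposited by Polycomb repressive complex 2 and marks silenced developmental genes, and a promoter that carries it together with H3K4me3 is called bivalent. Adult neurons have left the cell cycle, and genes for mitosis and DNA replication are in general little expressed in them.

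Sequences are shown first for the members on which the results below turn. Promoters are the RefSeq stretch from 250 bases before to 50 bases after a gene's start in build GRCm38.p6, 5′ to 3′ in the direction of the gene. The deposited regions use build mm9, so positions in the 2 builds were not set against each other and the sequences below stand beside the regions by gene name only. The first set comes from genes of cell division and DNA replication, the group described most fully below. Borealin (Cdca8) holds the chromosomal passenger complex at centromeres, and its promoter lay at chr4:124936868-124937167 on the minus strand. Topoisomerase II alpha (Top2a) untangles sister chromosomes, at chr11:99024140-99024439 on the minus strand, and Mcm5 is a subunit of the replicative helicase, at chr8:75109259-75109558 on the plus strand. Capitals mark the CCAAT box, searched as GCCAAT on both strands, and the cell cycle homology region (CHR) element, searched as TTTGAA on both strands, which are common in promoters of mitotic genes. Top2a and Mcm5 were added after their values were seen.
Cdca8: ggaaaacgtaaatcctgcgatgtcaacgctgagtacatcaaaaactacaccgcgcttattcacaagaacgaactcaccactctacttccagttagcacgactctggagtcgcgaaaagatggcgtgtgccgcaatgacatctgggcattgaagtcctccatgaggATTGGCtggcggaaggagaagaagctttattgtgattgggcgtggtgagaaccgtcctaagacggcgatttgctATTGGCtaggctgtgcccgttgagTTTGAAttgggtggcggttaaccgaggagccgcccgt
Top2a: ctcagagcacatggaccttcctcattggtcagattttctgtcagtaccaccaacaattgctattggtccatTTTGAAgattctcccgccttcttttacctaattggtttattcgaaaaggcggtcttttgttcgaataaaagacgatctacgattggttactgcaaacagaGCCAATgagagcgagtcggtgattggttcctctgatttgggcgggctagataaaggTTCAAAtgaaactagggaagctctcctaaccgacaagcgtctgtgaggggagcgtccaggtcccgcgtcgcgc
Mcm5: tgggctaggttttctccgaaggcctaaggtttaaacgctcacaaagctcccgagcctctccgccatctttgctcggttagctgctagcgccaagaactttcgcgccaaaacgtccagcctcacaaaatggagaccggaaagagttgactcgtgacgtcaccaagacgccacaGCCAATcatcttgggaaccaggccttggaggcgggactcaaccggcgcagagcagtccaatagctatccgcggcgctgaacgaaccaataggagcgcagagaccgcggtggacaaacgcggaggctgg
The Cdca8 promoter held 2 matches to GCCAAT and 1 to TTTGAA, that of Top2a held 1 and 2, and that of Mcm5 held 1 and 0. CCAAT without the leading G also occurs in these promoters, on 1 strand or the other, and was neither counted nor marked.

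The second set holds the protein-coding members with the highest H3K4me3 scores that had a promoter in the table, followed by the highest-scoring members of the lists for the primary cilium and for interferon-stimulated genes. Prss53, a serine protease gene, lay at chr7:127890921-127891220 on the minus strand, Gigyf1, which encodes an adaptor of growth factor signalling, at chr5:137518630-137518929 on the plus strand, Fbrs at chr7:127478708-127479007 on the plus strand, and Jakmip1, which encodes a neuronal protein that binds microtubules, at chr5:37050607-37050906 on the plus strand. Dync2h1, the heavy chain of the dynein that carries cargo back along cilia, lay at chr9:7177009-7177308 on the minus strand. Ifi35, an interferon-induced gene, lay at chr11:101448162-101448461 on the plus strand, and Cep164, which encodes a centriole appendage protein needed for cilia, at chr9:45828614-45828913 on the minus strand. Capitals mark CpG dinucleotides.
Prss53: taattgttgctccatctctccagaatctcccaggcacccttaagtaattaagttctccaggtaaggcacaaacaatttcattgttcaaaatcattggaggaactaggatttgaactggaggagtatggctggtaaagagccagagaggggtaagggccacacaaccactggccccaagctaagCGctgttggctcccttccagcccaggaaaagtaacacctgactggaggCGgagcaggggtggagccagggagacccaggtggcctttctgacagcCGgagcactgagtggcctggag
Gigyf1: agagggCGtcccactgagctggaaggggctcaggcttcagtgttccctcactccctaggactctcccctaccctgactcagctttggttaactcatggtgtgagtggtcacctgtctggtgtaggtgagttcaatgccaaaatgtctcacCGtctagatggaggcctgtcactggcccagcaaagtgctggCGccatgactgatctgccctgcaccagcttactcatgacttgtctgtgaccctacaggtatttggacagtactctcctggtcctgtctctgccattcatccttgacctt
Fbrs: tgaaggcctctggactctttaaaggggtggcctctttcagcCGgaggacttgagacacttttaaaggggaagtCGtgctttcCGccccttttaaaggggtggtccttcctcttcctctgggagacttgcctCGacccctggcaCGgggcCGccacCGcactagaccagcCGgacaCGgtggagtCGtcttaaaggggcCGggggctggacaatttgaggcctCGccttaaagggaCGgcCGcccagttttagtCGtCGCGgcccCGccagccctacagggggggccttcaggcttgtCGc
Jakmip1: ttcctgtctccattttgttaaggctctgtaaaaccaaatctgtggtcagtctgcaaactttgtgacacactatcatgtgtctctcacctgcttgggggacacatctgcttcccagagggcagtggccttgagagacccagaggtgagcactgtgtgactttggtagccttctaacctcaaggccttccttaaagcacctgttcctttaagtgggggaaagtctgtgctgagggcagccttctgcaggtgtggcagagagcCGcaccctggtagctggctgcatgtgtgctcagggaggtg
Dync2h1: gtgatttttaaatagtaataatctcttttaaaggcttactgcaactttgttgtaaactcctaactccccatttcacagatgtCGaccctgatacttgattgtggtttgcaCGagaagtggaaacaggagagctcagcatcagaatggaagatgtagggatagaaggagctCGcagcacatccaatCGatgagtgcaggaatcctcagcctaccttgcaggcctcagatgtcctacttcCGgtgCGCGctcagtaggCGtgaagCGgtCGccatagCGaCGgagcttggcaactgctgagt
Ifi35: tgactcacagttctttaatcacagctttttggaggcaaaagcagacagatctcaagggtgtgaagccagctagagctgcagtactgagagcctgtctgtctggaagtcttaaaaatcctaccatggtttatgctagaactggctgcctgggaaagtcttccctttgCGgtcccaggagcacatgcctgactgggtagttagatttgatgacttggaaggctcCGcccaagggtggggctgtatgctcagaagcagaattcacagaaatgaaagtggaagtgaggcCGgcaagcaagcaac
Cep164: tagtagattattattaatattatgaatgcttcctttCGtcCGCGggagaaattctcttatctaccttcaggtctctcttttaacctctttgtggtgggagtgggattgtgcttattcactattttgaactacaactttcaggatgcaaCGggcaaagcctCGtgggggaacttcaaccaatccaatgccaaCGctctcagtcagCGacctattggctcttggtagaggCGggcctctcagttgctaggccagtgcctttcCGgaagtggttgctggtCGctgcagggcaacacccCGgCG
These windows held between 1 and 19 CpG dinucleotides. Jakmip1 had 1, Prss53, Gigyf1 and Ifi35 had 3 each, Dync2h1 and Cep164 had 12 each, and Fbrs had 19. The table lists 2 starts for Jakmip1, of which the first is shown, and 1 start for each of the others.

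The third set is of miRNAs, since 3 of the 4 highest scores belonged to miRNA genes. Mature sequences from RefSeq are shown with the seed (bases 2 to 8) in capitals.
mmu-miR-338-3p: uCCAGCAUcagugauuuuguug
mmu-let-7g-5p: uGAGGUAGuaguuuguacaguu
mmu-miR-200c-3p: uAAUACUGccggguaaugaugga
mmu-miR-21a-5p: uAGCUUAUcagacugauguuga
mmu-miR-199a-3p: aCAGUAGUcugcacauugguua
mmu-miR-199b-3p: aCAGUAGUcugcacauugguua
The last 2 come from different chromosomes and have the same seed, CAGUAGU. RefSeq mature sequences were found for 15 of the 16 miRNA members.

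H3K4me3 at the members was weak and narrow. The score is the authors' value for a region over input, with a lowest listed value of 2 and a scale that is not given in the sources used here. A symbol with several regions takes the highest of their scores and the width of the widest. The median score of the 611 members was 4.08, with 50% of them between 2.75 and 5.38 and extremes of 2.0 and 13.6. The median over all 15052 H3K4me3 symbols was 7.32, and the median member stood at the 15.1th percentile of these (distribution-free 95% interval 13.7 to 16.6). A score under 3.00 was found for 189 members (30.9%), against 8.28% of all H3K4me3 symbols. Only 51 members (8.35%) were in the upper 50% of H3K4me3 scores. The median width was 5300 bp, against 6600 bp for all, and 55 members (9.0%) had a region wider than 10000 bp, against 19.17% of all. A member with more than 1 separate region was uncommon, 25 of 611 (4.09%), and the share over all symbols was 3.26%.

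**Figure D1:**
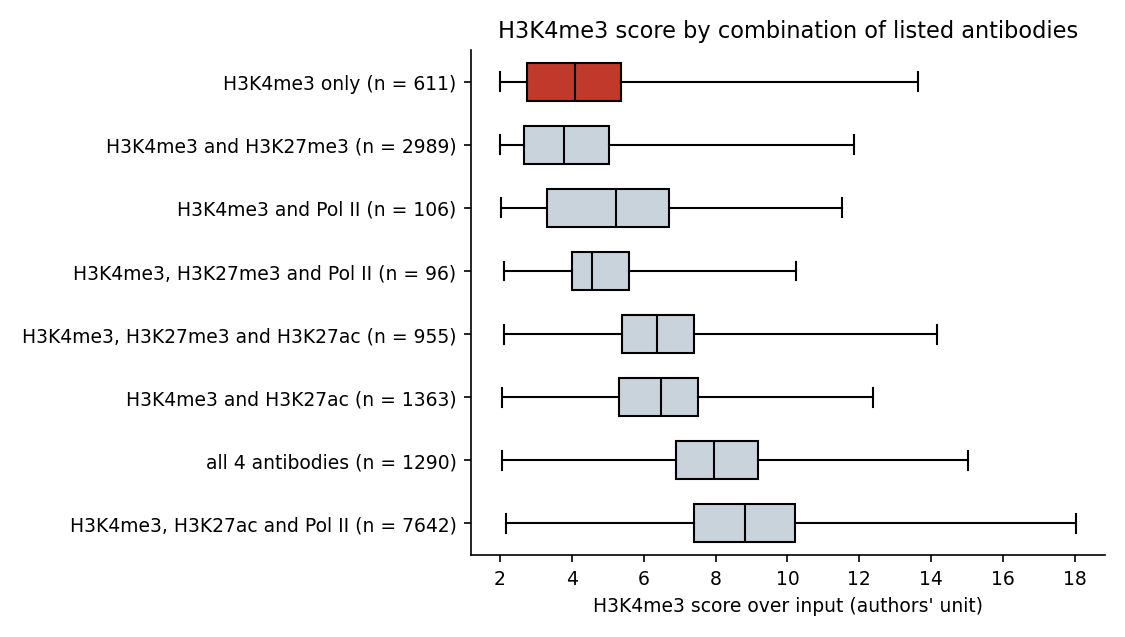
H3K4me3 score (horizontal axis, the authors' unit over input) of each symbol, grouped by which antibodies had a listed region. Boxes span the quartiles with the median as a line and whiskers reach the lowest and highest value; the H3K4me3-only symbols (red, median 4.08) lie beside those with H3K27me3 (3.79) and below those with H3K27ac and Pol II (8.81).

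Among the other combinations of marks, the H3K4me3-only symbols lay nearest in score to the bivalent ones. The 2989 symbols with H3K4me3 and H3K27me3 and nothing else had a median score of 3.79 and a median width of 5600 bp, and 32.4% of them scored under 3.00. The 7642 symbols with H3K4me3, H3K27ac and Pol II, called active below, had medians of 8.81 and 7200 bp, and 0.144% scored under 3.00. The 1363 with H3K27ac alone beside H3K4me3 had a median score of 6.48, and the 106 with Pol II alone beside it 5.22. Combinations were formed from the same lists, so these differences are given without a test.

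The lowest-scoring members stood at the edge of the H3K4me3 list. Tssk2, a kinase gene of the testis, scored 2.0 over 2500 bp, Golgb1, which encodes the Golgi protein giantin, 2.0 over 2500 bp, Gm13023 2.01 over 3100 bp, 2210404O07Rik 2.01 over 2700 bp and Def6 2.02 over 3100 bp. The absence of the other marks also rests on the edges of the other lists. Just outside the membership, Ccnb1, the gene of the mitotic cyclin B1, had an H3K27me3 region of score 2.01, as had Vmn1r76 (2.01), Agtr1b (2.01), Ttll3 (2.02) and 4930404N11Rik (2.02). Aplf, Lsm10, Tigd3, Ftsj1 and Zfp93 were outside through H3K27ac regions that each scored 2.0. Rrm1, the large subunit gene of ribonucleotide reductase, was outside through a Pol II region of 2.01, followed by Mcts2 (2.01), 1700001P01Rik (2.02), Fbxo47 (2.03) and Paqr6 (2.04). Scores under 2.5 in the other list were held by 218 of the 2989 symbols with H3K27me3 alone beside H3K4me3 (7.29%), by 419 of the 1363 with H3K27ac alone (30.7%) and by 67 of the 106 with Pol II alone (63.2%).

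The positions of the regions, which the choice by symbol did not use, went against the label for a part of the members. Of the 611, 66 (10.8%, exact binomial 95% interval 8.45 to 13.5) had an H3K4me3 region that shared at least 1 base with a region of another antibody, listed there under a neighbouring symbol. H3K27ac accounted for 48 of them, Pol II for 48, both for 37, and H3K27me3 for 10. Without them 545 symbols were left, 3.62% of the H3K4me3 symbols. The symbols listed beside a member show where the shared bases lay. Of the 467 members whose region was listed for them alone, 2 shared a base with another antibody's region. None of the 66 members whose region was listed with a further member did, for which 0 of 66 allows up to 5.44% (exact 95% interval), while 64 of the 78 whose region was listed with a symbol of another combination did (82.1%). This split follows largely from the choice of members, since a neighbour of another combination has by definition a region of another antibody, and it is given as a description. Intervals here and below cover counting error only and treat symbols as separate draws, although neighbouring symbols can hold the same region.

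Members with and without a shared base differed in score and width. The 66 with a shared base had a median score of 6.79, at the 42.4th percentile, and a median width of 11600 bp. The 545 without had a median score of 3.88, at the 13.7th percentile, and a median width of 5200 bp. For the latter the nearest H3K27ac region lay at a median of 31.8 kb, the nearest Pol II region at 42.4 kb and the nearest H3K27me3 region at 53.9 kb. Over the whole H3K4me3 list, 656 of 13142 regions shared no base with any other antibody's region, and 532 of those (81.1%) carried at least 1 member symbol. That share follows largely from the choice of members and is given as a description.

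**Figure D2:**
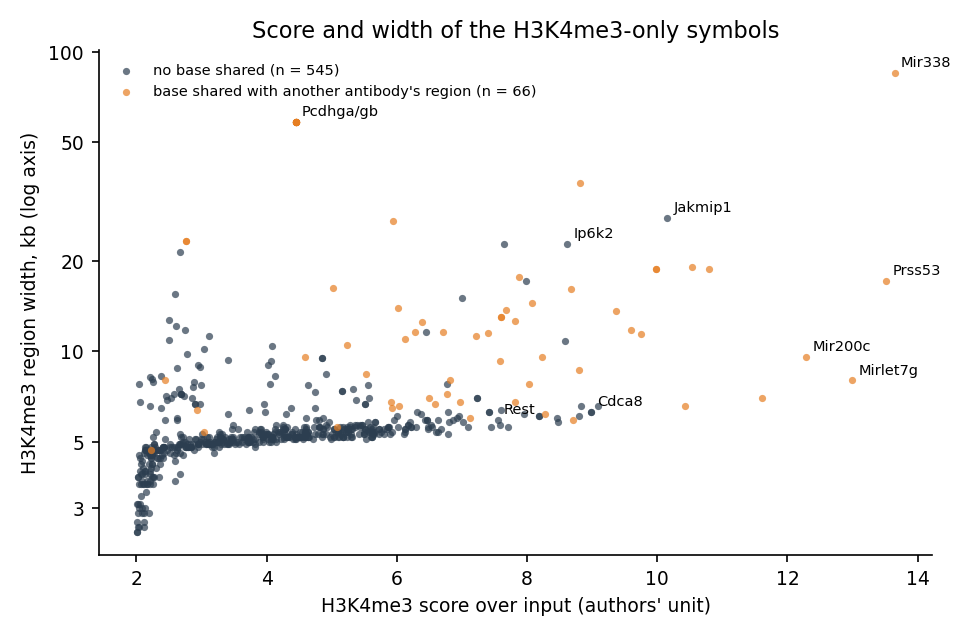
H3K4me3 score (horizontal axis, authors' unit) and region width in kb (vertical log axis) of each of the 611 members. Orange points are the 66 members whose region shares bases with another antibody's region (median 11600 bp) and dark points the 545 others (median 5200 bp); Jakmip1 is the highest-scoring dark point.

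The highest scores were mostly held by members inside a neighbour's region. Of the 10 highest, 9 shared bases with another antibody. Mir338, the gene of the miRNA miR-338, scored 13.6 in a region of 84.8 kb that was also listed for Baiap2, a gene for a postsynaptic scaffold protein. Baiap2's H3K27ac region (score 8.60) lay fully within it, and Baiap2's Pol II region (5.65) covered 77.8 kb of it. Prss53 scored 13.5 and had 2 regions, which between them were also listed for Vkorc1, Zfp646 and Zfp668. Mirlet7g scored 13.0 in a region listed with Wdr82. Mir200c scored 12.3 in a region listed with Emg1, Phb2 and the miRNA gene Mir141. Gigyf1 scored 10.8 in a region of 18.9 kb that overlapped the H3K27ac (10.6) and Pol II (6.11) regions listed for Gnb2, a G protein beta subunit gene. Pnldc1 (11.6), Fbrs (10.5), Scarna10 (10.4) and 4933405L10Rik (9.98) were the other members of the top 10 with shared bases.

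Fewer members shared bases with H3K27me3. Tnni3, the cardiac troponin I gene, scored 2.22 for H3K4me3 beside an H3K27me3 region of score 5.26 that overlapped it by 0.8 kb, and Vpreb3 scored 2.43 with an overlap of 5.7 kb. D4Ertd617e (8.71), the DNA polymerase delta subunit gene Pold1 (5.23) and Tppp2 (5.08) shared 1, 1.4 and 3.7 kb with H3K27me3 regions of 5.25, 3.53 and 2.84.

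Without a shared base, the highest score belonged to Jakmip1. Its region, chr5:37416801-37444700 in mm9, was 27.9 kb wide, scored 10.2 and was listed for Jakmip1 alone. The following names were chosen after the values were seen, as the members of highest score without a shared base. Gm7244 scored 9.08, and Cdca8 and 9930104L06Rik, which hold 1 region of 6.3 kb on opposite strands, 8.98. Lonrf3, on the X chromosome, scored 8.84, and the methyltransferase-like gene Mettl2 8.79. Ip6k2, which encodes an inositol hexakisphosphate kinase, scored 8.62 over 22.8 kb and Plekhg5 8.58 over 10.8 kb. Trmt12, a gene of tRNA modification, scored 8.48 and Gpr137b 8.46. The autophagy protease gene Atg4a and the proteasome chaperone gene Psmd10 hold 1 region on the X chromosome that scored 8.19. Nrxn2, which encodes the presynaptic adhesion protein neurexin 2, scored 7.98 over 17.2 kb. Its nearest Pol II region lay 6400 bp away and its nearest H3K27ac region 9200 bp. Zfp110 (7.64 over 22.8 kb), 2810007J24Rik (2.66 over 21.4 kb), Defa25 (2.58 over 15.5 kb) and Gas7 (7.00 over 15.1 kb) were also among the widest, so a wide region did not always score high. Distances to other antibodies' regions varied among these members. The nearest lay 900 bp from Zfp110 and 1800 bp from Mettl2 (both H3K27me3). It lay 3300 bp from Ip6k2 (Pol II) and 127200 bp from Lonrf3 (H3K27ac).

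Genes of cell division and DNA replication made up a larger share of the members than of the H3K4me3 list. Of 92 such genes, all with H3K4me3, 22 were H3K4me3-only (23.9%, exact 95% interval 15.6 to 33.9), against 4.06% of all H3K4me3 symbols. None of the 22 shared a base with another antibody's region, so the same 22 stood against the background of 3.62%. Among symbols with neither H3K27ac nor Pol II, the genes of the list lacked H3K27me3 in 22 of 48 cases (45.8%, 31.4 to 60.8), against 611 of 3600 over all symbols (17.0%, 15.8 to 18.2). The list was written with earlier results of these data known, and its share is given as a description.

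The 22 genes reached across the replication machinery and mitosis. For replication, the helicase subunits Mcm5 and Mcm6 scored 5.28 and 4.44, and the replication factor Mcm10 2.21. The GINS subunits Gins3 and Gins2 scored 5.76 and 3.96 and the clamp loader subunit Rfc3 4.91. The primase subunit Prim1 scored 3.89 and the polymerase epsilon subunit Pole2 3.07. Tyms, which makes thymidylate for DNA, scored 5.51. For chromosome structure, Top2a scored 3.88, the condensin II subunit Ncapg2 5.66 and Cdca5, the cohesion factor sororin, 5.16. For the spindle and kinetochore, Cdca8 scored 8.98, Nusap1 5.87, the motor proteins Kif4 and Kif2c 5.52 and 3.33, the Ndc80 complex subunit Spc24 4.59 and the Aurora A activator Tpx2 3.30. For mitotic exit, Cdc20, the activator of the anaphase-promoting complex, scored 4.63, securin (Pttg1) 4.19 and Racgap1, needed for cytokinesis, 4.05. The mitotic cyclin gene Ccnb2 (cyclin B2) scored 3.01. Their median was 4.51, over a median width of 5.4 kb. Apart from Cdca8 none scored above 5.87, and the median of the other 70 genes of the list was 6.15.

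Those 70 genes were spread over the other combinations. H3K27me3 alone beside H3K4me3 was listed for 26 of them, and 20 were active. A further 12 had H3K27ac alone beside H3K4me3. Among the active were the helicase subunits Mcm4 (9.0) and Mcm7 (8.75) and the kinesin gene Kif11 (7.48), while Mcm2 (9.63) and Aurka (9.40) had H3K27ac and no Pol II. Genes of the same complex stood in different combinations. Complexes were counted whole after the values had been seen. Of the 8 subunits of augmin, which seeds microtubules inside the spindle, 4 were members, Haus6 (6.63), Haus4 (6.13), Haus1 (4.45) and Haus7 (3.74), and 3 were active. Members were 2 of the 6 subunits of the MCM helicase, 2 of 5 of replication factor C (Rfc3 and Rfc2, 4.50) and 2 of 16 constitutive centromere proteins (Cenph 5.31 and Cenpi 2.37). For comparison, 2 of the 20 aminoacyl-tRNA synthetases counted were members, Lars (6.87) and Qars (6.30). Exact intervals were 15.7 to 84.3% for augmin, 4.33 to 77.7% for the MCM helicase and 5.27 to 85.3% for replication factor C. Those of the centromere proteins (1.55 to 38.3%) and the synthetases (1.23 to 31.7%) included the 4.06% of all symbols. Because these groups were counted after the values had been seen, their shares are descriptions with no test. Mcm5, Mcm6 and Rfc3 are also among the cell division members above, so their complexes are not separate from that list.

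**Figure D3:**
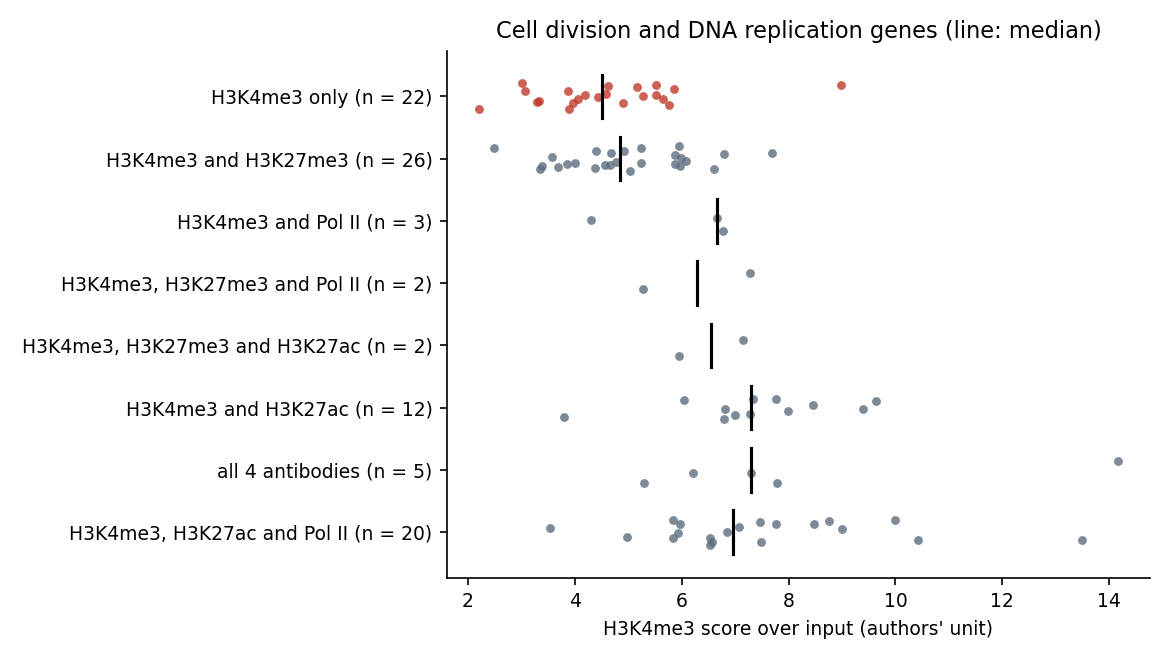
H3K4me3 score (horizontal axis, authors' unit) of the 92 cell division and DNA replication genes, 1 point per gene, by the combination of listed antibodies, with the median as a line; vertical scatter within a row has no meaning. The 22 H3K4me3-only genes (red) have a median of 4.51, near the 26 with H3K27me3, and 1 of them, Cdca8, is at 8.98.

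The promoters of these genes could be compared within the list, since the RefSeq table held one for 19 of the 22 members and 57 of the other 70. GCCAAT on either strand was found in 10 of the 19 (52.6%, exact 95% interval 28.9 to 75.6) and in 22 of the 57 (38.6%, 26.0 to 52.4), and TTTGAA in 10 (52.6%, 28.9 to 75.6) and 26 (45.6%, 32.4 to 59.3). Over all 27025 promoters of the table, windows of the same 300 bases, the shares were 15.2% and 18.1%. That set also holds genes without H3K4me3, which the list does not, so it is not a like comparison. The intervals of members and non-members of the list overlapped for both motifs, and both groups lay above the share over all promoters. The TTTGAA motif was added after the data were seen, to 13 motifs that were counted, of which GCCAAT is 1. Of the others, the E2F motif GGCGGGAA was in 2 of the 19 (10.5%, 1.30 to 33.1) and 4 of the 57 (7.02%, 1.95 to 17.0). The remaining motifs are not described here. A match is a run of letters and not a bound site. The Cdca8, Top2a and Mcm5 sequences above are 3 of the 19. Over all 611 members a promoter was found for 441 (72.2%), under the 80% set as a minimum, so the check of CpG content, GC content and motifs over all members was void and no value of it is given.

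Genes of DNA repair were near the background share. Of 81 with H3K4me3, 5 were members (6.17%, 2.03 to 13.8), namely the helicase gene Ercc2 (5.47), the exonuclease gene Exo1 (5.16), the Fanconi anaemia genes Fancg (5.10) and Fanca (3.18), and Rad54b (4.23).

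Genes of motile cilia and their axonemes had 9 members of 60 with H3K4me3 (15.0%, 7.10 to 26.6), none with a shared base. These were the axonemal dynein heavy chain genes Dnahc9 (5.61), Dnahc7b (4.52) and Dnahc6 (3.36), the radial spoke genes Rsph4a (4.50), Rsph9 (4.38) and Rsph6a (2.99), Ccdc113 (3.44), Tppp3 (2.78) and Rfx2 (4.57), a transcription factor of ciliated cells. Of the 60 genes, 20 were active and 18 had H3K27me3 alone beside H3K4me3. Striatal neurons carry a primary cilium and no motile one. The list for the primary cilium and its transport had 4 members of 59 (6.78%, 1.88 to 16.5), Dync2h1 (6.60), Cep164 (6.01), the transition zone gene Tctn2 (5.39) and the BBSome gene Bbs1 (3.41), and 32 of its genes were active. Of the genes named Ccdc for a coiled-coil domain, 12 of 113 were members (10.6%, 5.61 to 17.8), with scores from 3.31 to 7.42.

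Interferon-stimulated and antigen presentation genes had 5 members of 40 (12.5%, 4.19 to 26.8). Ifi35 (6.58) and the RNA sensor regulator Dhx58 (5.01) shared bases with another antibody's region. The class I gene H2-T23 (4.24), the signalling factor Stat2 (4.09) and Oas1b (2.22), named for the oligoadenylate synthetase family, did not. Without Ifi35 and Dhx58, 3 of 40 were left. Of 42 genes named as Cd antigens 6 were members (14.3%, 5.43 to 28.5). Cd274, the gene of the immune checkpoint ligand PD-L1, scored 6.12 with shared bases, and the complement regulator Cd55 5.50 without.

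Members from lists of other tissues and the germline all had scores under 3.0. Their shares lay above the background of 4.06%, which was inside every interval but that of the keratin genes. Of 34 germline and meiosis genes with H3K4me3, 4 were members (11.8%, 3.30 to 27.5), Syce2 of the synaptonemal complex (2.98), Tssk3 (2.69), Spo11, which cuts DNA in meiosis (2.08), and Tssk2 (2.0). Olfactory and vomeronasal receptors had 10 members of 183 (5.46%, 2.65 to 9.82), none above 2.63. Keratin-named genes had 4 of 15 (26.7%, 7.79 to 55.1), all between 2.04 and 2.87, a share as high as that of the cell division list on far fewer genes. Of 18 genes of liver, gut, kidney, muscle and blood, 1 was a member (5.56%, 0.141 to 27.3), the muscle filament gene Des (2.11).

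Markers of the neurons themselves were not found among the members. None of the 19 shared medium spiny neuron genes with H3K4me3, none of the 16 of the direct and indirect pathways, none of the 25 pan-neuronal genes and none of the 25 housekeeping genes was H3K4me3-only. The exact 95% intervals of these zero shares reached 17.6%, 20.6%, 13.7% and 13.7%, so the lists are too short to set them below the background. Of the 25 pan-neuronal genes 21 were active, as were 15 of the 19 shared medium spiny neuron genes, while none of 19 genes of other neuron types was active or a member. Of the 16 direct and indirect pathway genes 1 was active and 15 had H3K27me3, with or without other marks. Among markers of other cells of the striatum, 1 of 9 oligodendrocyte genes was a member, the myelin gene Mog (3.62), and none of 9 astrocyte, 6 microglia and immune or 9 endothelial and mural genes was. Some glial genes were active in these lists, 2 of the 9 oligodendrocyte genes, 2 of the 9 astrocyte genes and 1 of the 6 microglial ones. The part of other cells' chromatin in the members was not tested.

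**Figure D4:**
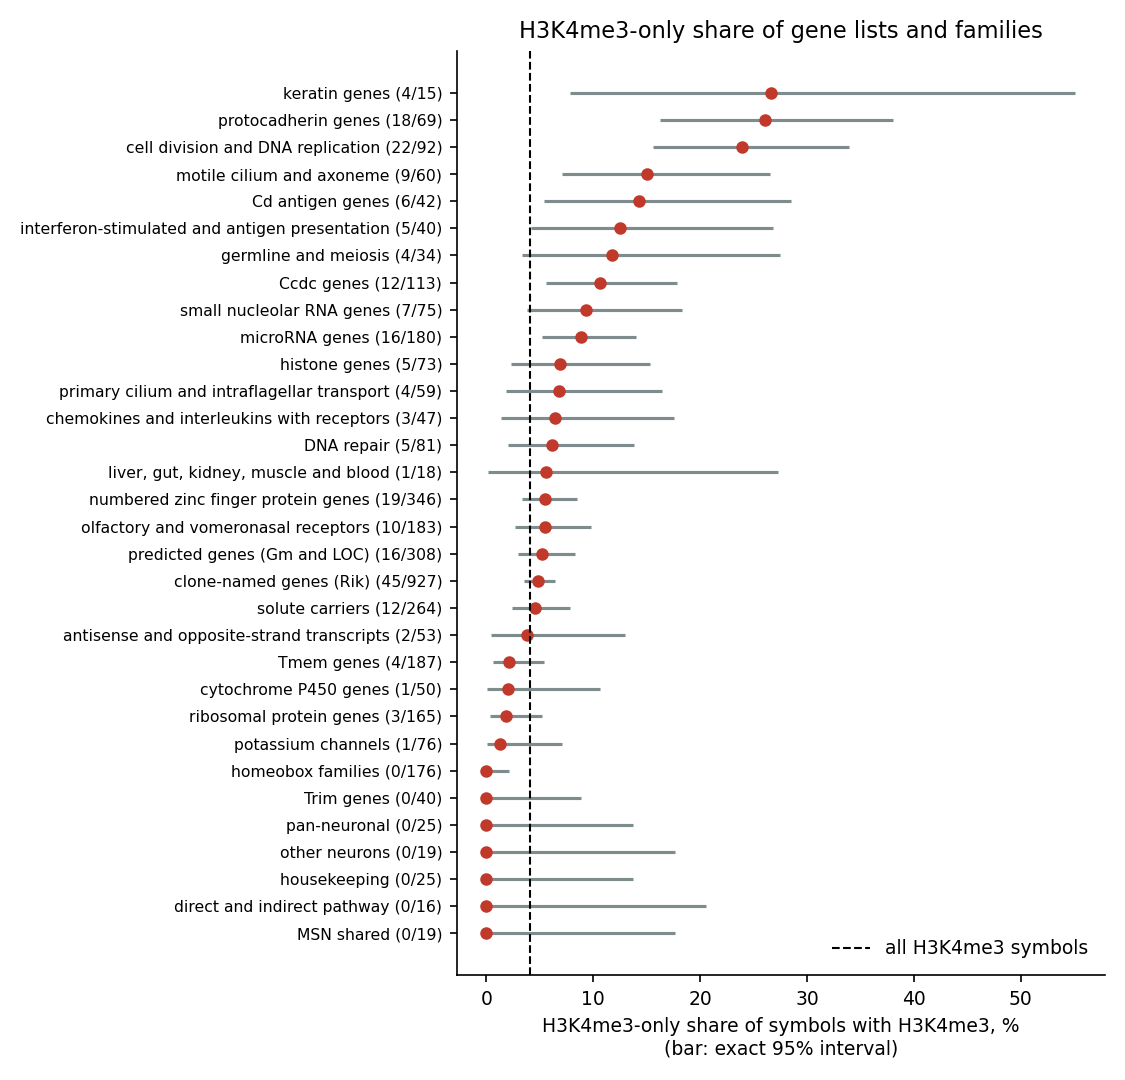
Share of H3K4me3-only symbols among the symbols with H3K4me3 (horizontal axis, percent) in each gene list or name family with at least 15 such symbols; bars are exact 95% intervals, the counts stand beside each name and the dashed line is the 4.06% of all symbols. The whole interval lies right of the line for 8 groups, keratin, protocadherin, cell division, motile cilium, Cd antigen, interferon-stimulated, Ccdc and microRNA genes, and left of it for homeobox genes. Members with shared bases are counted here. Without them 3 of 5 interferon-stimulated, 10 of 16 microRNA, 7 of 18 protocadherin and 5 of 6 Cd antigen members are left. The keratin, cell division, motile cilium and Ccdc groups keep all of theirs.

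Protocadherin genes had 18 members of 69 with H3K4me3 (26.1%, 16.3 to 38.1), but they are few independent regions. The clustered protocadherins are adhesion proteins from which each neuron is known to use a small set, and their variable first exons, each with a promoter of its own, stand in a row in 3 gene clusters. Of the members, 10 genes of the gamma cluster (5 Pcdhga and 5 Pcdhgb genes) hold 1 region of 58.2 kb and score 4.45, listed also for Pcdhga12. That gene has a Pol II region of 2.35 in it, so all 10 share bases with another antibody. In the alpha cluster, Pcdha7 to Pcdha12 were members with scores from 2.23 to 3.96, and Pcdha7 shared bases with an H3K27me3 region of 2.02 listed for Pcdha6. Pcdhga6 (2.52) and, outside the clusters, Pcdh20 (5.23) completed the group. Without the 11 that share bases, 7 of 69 were left (10.1%). The neighbouring genes of the clusters carried other marks. Pcdha1 to Pcdha6 and the beta genes of the cluster had H3K27me3, with scores from 2.02 to 6.02. In the gamma cluster, Pcdhga1 to Pcdhga5, Pcdhgb1 and Pcdhgb2 hold 1 H3K4me3 region of 45.5 kb, which overlapped an H3K27me3 region of 8.92. The C-type genes Pcdhac2 (10.5), Pcdhgc4 and Pcdhgc5 (10.6) were active.

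Of the miRNA genes with H3K4me3, 16 of 180 were members (8.89%, 5.17 to 14.0), and 10 of them had no shared base. High scores went with a neighbour's region, as for Mir338, Mirlet7g and Mir200c, and with Mir770 (5.95), whose region of 27.2 kb is listed for the imprinted gene Meg3. Mir493 and Mir673, from the same imprinted locus, hold 1 region of 23.4 kb at 2.76. The other miRNAs scored from 2.07 to 5.47. Mir21, whose product miR-21a-5p is shown above, scored 2.48, Mir199a-1 2.22 and Mir199b, which makes the same mature 3p sequence, 2.61. Regions at these genes mark where the file places a miRNA transcript and not necessarily the start of its primary transcript.

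Histone genes had 5 members of 73 (6.85%), and 4 of the 5, Hist1h2an and Hist1h2bp (7.60), Hist1h3b (6.71) and Hist1h2ah (6.39), lay in regions with shared bases within the histone cluster. Numbered zinc finger genes had 19 of 346 (5.49%, 3.34 to 8.44), led by Zfp110, and solute carriers 12 of 264 (4.55%, 2.37 to 7.81), led by Slc12a9 (6.45), both near the background. Ribosomal protein genes had 3 of 165 (1.82%), Mrpl35 (5.49) and Mrpl33 (5.13) of the mitochondrial ribosome and Rps4y2 (2.43). Potassium channels had 1 of 76, Kcnk7 (2.26). No member was found among 176 homeobox genes, a zero share whose interval reached 2.07%, or among 40 Trim genes (8.81%). H3K27me3 was listed for 153 of the 176 homeobox genes, 119 of them with H3K4me3 and nothing else, which bars them from membership, and 19 were active.

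The members were unevenly placed on the chromosomes. On the X chromosome 47 of 507 H3K4me3 symbols were members (9.27%, 6.89 to 12.1), against 563 of 14539 on the autosomes (3.87%, 3.56 to 4.199), and 46 of the 47 had no shared base. The share of X symbols with H3K27ac equalled that of the autosomes (74.8% and 74.8%), the share with Pol II was lower (53.5% and 60.9%), and the share with H3K27me3 was 19.9% against 35.9%. Among symbols with neither H3K27ac nor Pol II, 47 of 124 on the X chromosome lacked H3K27me3 (37.9%, 29.3 to 47.1), against 563 of 3473 on the autosomes (16.2%, 15.0 to 17.5). Among symbols in the lower 50% of H3K4me3 scores, 42 of 277 on the X chromosome were members (15.2%, 11.2 to 19.9), against 518 of 7243 on the autosomes (7.15%, 6.57 to 7.77). In the upper 50% the intervals overlapped, with 5 of 230 (2.17%, 0.71 to 5.0) against 45 of 7296 (0.617%, 0.45 to 0.824). Those 5 were Lonrf3, Armcx6, Atg4a, Psmd10 and Hmgn5, of which Atg4a and Psmd10 hold 1 region and Armcx6 shares bases with another antibody's region. The sex of the mice is not given in the sources used here. The H3K4me3 list held 6 symbols of the Y chromosome, with a median score of 6.14, so chromatin of male nuclei was present, but whether all mice were male is unknown.

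**Figure D5:**
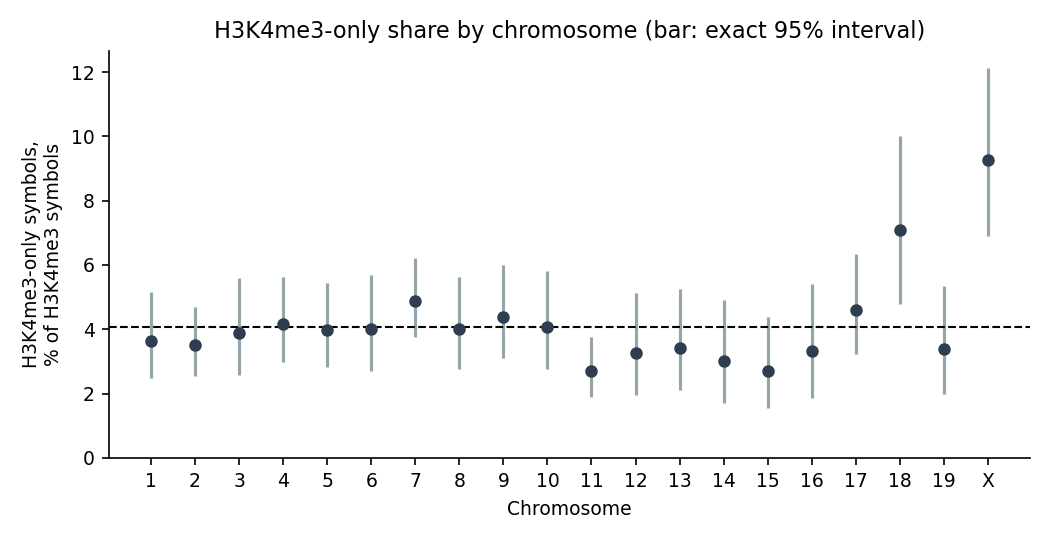
Share of H3K4me3-only symbols among the H3K4me3 symbols of each chromosome (vertical axis, percent), with exact 95% intervals as bars and the share over all symbols as a dashed line. The X chromosome, at 9.27%, is highest, and chromosome 18, which holds the clustered protocadherins, follows at 7.07%; the Y chromosome has 6 symbols and is not drawn.

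The X-linked members spanned many functions. Lonrf3 (8.84), Armcx6 (8.27), Atg4a and Psmd10 (8.19) scored highest, followed by the nucleosome-binding protein gene Hmgn5 (7.60) and Lancl3 (7.10). Med12, a subunit gene of the Mediator complex, scored 5.60, and Kif4 and Pdzd11, which hold 1 region, 5.52. The calcium channel gene Cacna1f and Ccdc22 scored 5.03 in 1 region, the cytokine receptor gene Il13ra1 4.86 and Gabra3, the alpha 3 subunit gene of the GABA-A receptor, 4.27. Near-identical copies were among them, such as Tmsb15b1, Tmsb15l and Tmsb15b2 (5.18, 5.18 and 3.95), and their values are uncertain because the handling of reads that fit several places is not given in the sources used here. Chromosome 18 had 29 of 410 (7.07%, 4.79 to 10), of which 17 were clustered protocadherins. The other 18 autosomes lay between 2.70% on chromosome 11 and 4.87% on chromosome 7.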

How the data were processed

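The authors deposited 1 region list per antibody, each made over the input library. Per the files, a row gives a region of mm9, a RefSeq transcript, a score of at least 2, a strand, a symbol and a product. The deposited score has a scale that is not given in the sources used here, and the lists hold no counts. The submitters' processing notes name Bowtie 0.12.7, MACS 1.4 and mm9, with no role stated. Rows without a symbol (36 for H3K4me3) were left out.

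Symbols were compared between lists, and regions by at least 1 shared base. A percentile is a symbol's rank among all H3K4me3 symbols or, where the H3K4me3 list was cut, among the symbols left. Code was tested on simulated lists and its overlaps checked against bedtools. Shares have exact (Clopper-Pearson) 95% intervals, computed with Python 3.11.15, pandas 2.3.3 and scipy 1.17.1. Gene types, promoters and miRNAs came from RefSeq tables of GRCm38.p6.

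Members and gene lists were chosen with earlier results of these data known. Of 707 list symbols 669 were in the files. Named members had the 10 highest or widest regions, the 5 lowest scores, or up to 6 highest scores per list, unless stated otherwise. Alternatives cut a list to its upper 50% by score or excluded members by shared bases.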

Additional observations from a re-analysis of the deposited data

How the results depend on the processing

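With 1 library per antibody and an unknown depth, membership depends on where each list ends. No paired analysis was possible because each antibody has 1 library. Cut to the upper 50% of the H3K4me3 list, the members numbered 56, with 50 coding genes and a median width of 8350 bp. The cut was made at the median score of distinct regions, and not of symbols. The median percentile of these members, 31.5, is a rank among the 8106 symbols left after the cut. It cannot be set against the percentiles given among all H3K4me3 symbols. Of the 56 members, 55.4% shared bases and 69.6% shared their region with another symbol. Among the symbols left after the cut, members were 56 of 8106 (0.691%) and 6 of 261 on the X chromosome (2.30%, exact interval 0.848 to 4.94). They were 1 of 24 cell division genes (4.17%, 0.105 to 21.1) and 0 of 10 protocadherins (0%, up to 30.8%). The cell division share rests on 1 gene, and its interval includes 0.691%. Whether the larger share of that list persists after the cut cannot be told from it. With the upper 50% of the other 3 lists, the members numbered 5228, with 4989 coding genes, a median percentile of 36.5 and a median width of 6000 bp. Then 3.25% shared bases and 29.0% shared their region, and the shares were 34.7% of all symbols, 75% of cell division genes, 47.8% of protocadherins and 52.3% of X symbols. Leaving out members with shared bases gave a median percentile of 13.7, a shared-base share of 0% by construction, 14.7% with a region shared between symbols, 3.62% of all symbols and 10.1% of protocadherins, while 545 symbols, 510 coding genes, 5200 bp, 23.9% of cell division genes and 9.07% of X symbols stayed close to the reported values. Matching by transcript gave 674 symbols, and an overlap of at least 50% of the narrower region 10.1%. The alternatives for the X chromosome and for all symbols were chosen after seeing the data. The CpG value was not computed under any alternative because too few promoters were matched.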

Other observations

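Some members with no shared base are of interest by name and were chosen after their values were seen. Rest, the repressor that silences neuronal genes outside neurons, scored 7.55 over 5.9 kb, with the nearest H3K27me3 region 33000 bp and the nearest H3K27ac region 37900 bp away. Uty scored 7.58 and was the 1 member among 6 symbols of the Y chromosome. Gabrg1, the gamma 1 subunit gene of the GABA-A receptor, scored 5.36 with the nearest H3K27ac region 245600 bp away. Tspan2, a tetraspanin gene of myelinating cells, scored 6.52 with the nearest 255500 bp away.

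More genes of the centrosome and mitosis than the fixed list held were seen among the members, again chosen after their values. They include cyclin F (Ccnf, 7.02), the microcephaly gene Wdr62 (6.92), the kinetochore scaffold gene Casc5 (6.68), the centrosomal kinase gene Nek2 (6.29), centriolin (Cep110, 5.90), Oip5 of the Mis18 complex (5.87) and Ska1 (4.06). Since they were picked from the members, they add no share to the one given for the list.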
